A study of Mus musculus with 8 samples.

Results

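The 10 platelet genes Ppbp, Pf4, Itga2b, Itgb3, Gp1ba, Gp1bb, Gp9, Tubb1, Treml1 and Clec1b were followed through bulk RNA-Seq libraries of sorted mouse blood monocytes (MCs). They were chosen by symbol as genes of platelets and of megakaryocytes, the bone marrow cells that shed them, and 10 of the 10 were found among the 16486 genes with a deposited value. Earlier results of these data were known when they were chosen, so the number of them that went one way is a description and not independent evidence of a direction. The 8 libraries came from CD11b+Ly6G- blood cells sorted into Ly6Chigh and Ly6Clow MCs. Control (CT) mice were C57/BL6 mice, with 2 libraries of each subset. The T1DM model was made by injecting C57/BL6 mice aged 8 weeks with streptozotocin (STZ), which kills insulin-producing beta cells, using a daily dose of 50 mg/kg on each of 5 days, and it had 1 library of each subset. T2DM mice were db/db mice, which are homozygous for a mutation of the leptin receptor and become obese and diabetic, also with 1 library of each subset. The paper describes 2 datasets for each group, diabetic groups included, while the data used here hold 1 library per diabetic model and subset. All mice were male, ate normal chow and were bled at 20 to 22 weeks of age. Material of 5 mice was pooled for each group, so the difference between CT replicates need not hold the difference between mice, and both subsets of a mouse group go back to the same mice. The sequencer was a NextSeq 500 for the CT and a HiSeq 4000 for the diabetic libraries, and against CT its effect and that of diabetes cannot be told apart. Both diabetic models were run on the same sequencer.

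Platelets carry no nucleus but keep RNA from the megakaryocyte that made them. They store chemokines in alpha granules, hold to fibrinogen through the integrin GPIIb/IIIa and to von Willebrand factor through the GPIb-IX complex. Activated platelets stick to MCs through P-selectin, which binds PSGL-1 on the MC, and through GPIb, which can bind the MC integrin Mac-1, whose alpha chain is the sorted antigen CD11b. The antibodies named for the sort were against CD11b, Ly6G and Ly6C, and a platelet antigen was not among them. RNA of platelets bound to MCs, RNA of platelets sorted on their own and RNA of the MCs themselves cannot be told apart in a bulk library. A lower level can also stand for fewer such cells or for less RNA in each, which cannot be told apart here either.

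The genes lie on several chromosomes of the mouse genome (RefSeq, GRCm38.p6). Ppbp and Pf4 are neighbours on chromosome 5, where 2371 bases lie between the end of Ppbp and the start of Pf4. Itga2b, Itgb3 and Gp1ba lie on chromosome 11, Gp9 and Clec1b on chromosome 6, Gp1bb on chromosome 16, Tubb1 on chromosome 2 and Treml1 on chromosome 17. RefSeq promoters were found for 9 of the 10 genes. The 250 bases before the start used in the promoter table are shown for 4 of them, the neighbours Ppbp and Pf4, which lay at different distances from CT in T2DM mice, and the receptor genes Itga2b and Gp1ba, which went the same way as Ppbp. The windows are Ppbp at chr5:90768268-90768517 on the plus strand, Pf4 at chr5:90772185-90772434 on the plus strand, Itga2b at chr11:102469884-102470133 on the minus strand and Gp1ba at chr11:70638872-70639121 on the plus strand. RefSeq bounds the Gp1ba gene from 70639102, so the end of its window lies inside the gene, and distances are counted from the start used in the promoter table. Each is written 5′ to 3′ along the strand of its gene, and capitals mark GATAA, the core letters of GATA factor sites, and GGAAG, letters of many ETS factor sites, on either strand.
Ppbp: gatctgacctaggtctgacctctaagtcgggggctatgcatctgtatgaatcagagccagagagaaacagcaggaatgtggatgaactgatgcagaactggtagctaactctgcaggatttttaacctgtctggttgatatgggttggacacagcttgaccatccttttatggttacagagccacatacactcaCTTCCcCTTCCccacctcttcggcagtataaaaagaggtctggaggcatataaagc
Pf4: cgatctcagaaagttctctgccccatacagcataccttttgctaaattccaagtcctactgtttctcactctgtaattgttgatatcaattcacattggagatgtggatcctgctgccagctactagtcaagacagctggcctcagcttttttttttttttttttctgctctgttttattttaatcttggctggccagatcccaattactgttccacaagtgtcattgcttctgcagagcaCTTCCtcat
Itga2b: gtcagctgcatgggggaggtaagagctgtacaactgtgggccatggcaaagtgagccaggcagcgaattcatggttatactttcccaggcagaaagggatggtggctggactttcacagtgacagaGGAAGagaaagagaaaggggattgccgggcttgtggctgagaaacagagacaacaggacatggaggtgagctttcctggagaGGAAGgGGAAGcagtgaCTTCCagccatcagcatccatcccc
Gp1ba: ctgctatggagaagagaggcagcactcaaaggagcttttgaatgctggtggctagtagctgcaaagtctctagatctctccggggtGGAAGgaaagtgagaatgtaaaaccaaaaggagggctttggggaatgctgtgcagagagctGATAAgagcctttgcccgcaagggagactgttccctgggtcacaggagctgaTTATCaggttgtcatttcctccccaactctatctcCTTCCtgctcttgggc
The letters GGAAG were found in 8 of the 9 windows and in 64.1% of all 32851 mouse promoter windows of this length. GATAA was found in 3 of the 9, which are Gp9, Clec1b and Gp1ba, and in 22.6% of all windows. Gp1ba held GATAA at 103 and, on the other strand, at 51 bases before the start, while the Ppbp and Pf4 windows held none. Ppbp had its GGAAG matches at 56 and 50 bases before the start, both on the other strand. The match in Pf4 lay 9 bases before the start. Such a match describes the letters of a window and does not show that a factor binds there.

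Values are the log2 expression values deposited for each gene and library. The study's methods name both gene counts and TPM, a unit that is scaled by gene length, and do not say from which of them the deposited values were made, so levels were compared between libraries and not between genes. 2 raised to these values summed to between 838696 and 1090019 per library, with the lowest sums in Ly6Clow libraries. The read count behind a value is unknown. CT replicates of the same subset differed by a median SD of 0.113 over the 10 genes and both subsets. Gp1bb is uncertain, since 91.5% of the 31-base sequences of its transcripts also occur in Sept5, a gene beside it, and reads could have been split between them. The next largest share was 3.64%, for Clec1b with Clec9a. Over all libraries 7 of 8 classical MC genes passed as higher in Ly6Chigh MCs, beside 5.37% of all genes. Of 10 nonclassical MC genes 7 passed as higher in Ly6Clow MCs, beside 6.76%, and 1 went the other way. In CT mice 2 of these 10 were higher in Ly6Chigh MCs, Cx3cr1 most, by 0.83 ± 0.04 on the log2 scale (SE, limma adjusted p = 0.0054). B cell genes were present beside these MC markers, with 10 of 10 passing as higher in Ly6Clow MCs over all libraries.

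The platelet chemokine genes were highest in T1DM MCs. Ppbp, which encodes the precursor of the neutrophil-attracting chemokine CXCL7, was at 8.27 and 8.03 in CT Ly6Chigh, 7.70 and 7.75 in CT Ly6Clow, 8.98 in T1DM Ly6Chigh, 9.17 in T1DM Ly6Clow, 6.68 in T2DM Ly6Chigh and 6.86 in T2DM Ly6Clow MCs. Both T1DM libraries thus lay above all 4 CT libraries and both T2DM libraries below them, with no overlap between the mouse groups. Pf4, which encodes platelet factor CXCL4, was at 5.24 and 5.49 in CT Ly6Chigh, 5.46 and 5.49 in CT Ly6Clow, 6.23 and 6.18 in T1DM Ly6Chigh and Ly6Clow, and 5.25 and 5.38 in T2DM Ly6Chigh and Ly6Clow MCs. Only the T1DM libraries of Pf4 stood apart, and its T2DM libraries lay within the range of the CT libraries. On the log2 scale Ppbp fell by 2.31 ± 0.19 (SE) from T1DM to T2DM over both subsets, which is 4.95-fold lower (limma, adjusted p = 0.00064). The same difference of Pf4 was -0.90 ± 0.16 (SE) with a limma adjusted p of 0.028, which did not pass the limits used here, an adjusted p under 0.01 and an absolute log2 fold change (log2FC) over 1.

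The integrin of platelets is the pair of Itga2b (GPIIb, also a marker of megakaryocytes) and Itgb3 (GPIIIa, which other cells also use). Itgb3 was at 7.00 and 7.08 in CT Ly6Chigh, 6.81 and 6.70 in CT Ly6Clow, 7.32 and 7.56 in T1DM Ly6Chigh and Ly6Clow, and 5.50 and 5.86 in T2DM Ly6Chigh and Ly6Clow MCs. Itga2b was at 5.32 and 5.21 in CT Ly6Chigh, 5.20 and 5.04 in CT Ly6Clow, 5.93 and 5.59 in T1DM Ly6Chigh and Ly6Clow, and 4.10 and 4.87 in T2DM Ly6Chigh and Ly6Clow MCs. For both genes the T1DM libraries lay above all CT libraries and the T2DM libraries below all of them. Itgb3 fell by 1.76 ± 0.19 (SE) from T1DM to T2DM, 3.38-fold lower (limma, adjusted p = 0.0026). For Itga2b the difference was -1.28 ± 0.26 (SE) with a limma adjusted p of 0.051.

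The GPIb-IX complex is made of the products of Gp1ba, which holds the binding site for von Willebrand factor, Gp1bb and Gp9. Gp1ba was at 4.88 and 4.61 in CT Ly6Chigh, 4.43 and 4.58 in CT Ly6Clow, 5.43 and 5.27 in T1DM Ly6Chigh and Ly6Clow, and 4.09 and 4.24 in T2DM Ly6Chigh and Ly6Clow MCs. Its mouse groups did not overlap, and the order was T1DM, CT and T2DM from high to low. Gp9 was at 5.28 and 5.39 in CT Ly6Chigh, 5.13 and 4.68 in CT Ly6Clow, 5.69 and 5.99 in T1DM Ly6Chigh and Ly6Clow, and 4.54 and 4.82 in T2DM Ly6Chigh and Ly6Clow MCs. The T1DM libraries of Gp9 lay above all CT libraries, while the T2DM Ly6Clow library lay between the CT Ly6Clow replicates. Gp1bb was at 3.22 and 3.55 in CT Ly6Chigh, 2.81 and 2.39 in CT Ly6Clow, 3.82 and 3.04 in T1DM Ly6Chigh and Ly6Clow, and 2.26 and 2.36 in T2DM Ly6Chigh and Ly6Clow MCs. Here T1DM overlapped CT, and the values carry the doubt about Sept5. From T1DM to T2DM the log2FC was -1.18 ± 0.21 (SE) for Gp1ba, -1.12 ± 0.36 (SE) for Gp1bb and -1.16 ± 0.26 (SE) for Gp9, with limma adjusted p-values of 0.026, 0.20 and 0.067.

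The remaining genes were Tubb1, the beta tubulin of the ring of microtubules that keeps platelets flat, Treml1, an alpha granule receptor that reaches the surface on activation, and Clec1b, the receptor of podoplanin. Tubb1 was at 4.76 and 4.87 in CT Ly6Chigh, 4.11 and 4.27 in CT Ly6Clow, 5.16 and 5.28 in T1DM Ly6Chigh and Ly6Clow, and 3.14 and 3.85 in T2DM Ly6Chigh and Ly6Clow MCs. Its mouse groups did not overlap. Treml1, the gene of the set with the widest gap between CT replicates, was at 2.56 and 2.27 in CT Ly6Chigh, 1.88 and 3.01 in CT Ly6Clow, 3.55 and 2.92 in T1DM Ly6Chigh and Ly6Clow, and 2.12 and 0.82 in T2DM Ly6Chigh and Ly6Clow MCs. The CT Ly6Clow replicates of Treml1 alone were 1.13 apart, and the higher of them lay above the T1DM Ly6Clow library. Clec1b was at 4.15 and 4.15 in CT Ly6Chigh, 3.87 and 4.27 in CT Ly6Clow, 4.43 and 4.72 in T1DM Ly6Chigh and Ly6Clow, and 3.74 and 3.90 in T2DM Ly6Chigh and Ly6Clow MCs. Its T1DM libraries lay above all CT libraries, and its T2DM Ly6Clow library lay within them. The log2FC from T1DM to T2DM was -1.73 ± 0.33 (SE) for Tubb1, -1.76 ± 0.50 (SE) for Treml1 and -0.76 ± 0.24 (SE) for Clec1b, with limma adjusted p-values of 0.039, 0.15 and 0.19.

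**Figure D1:**
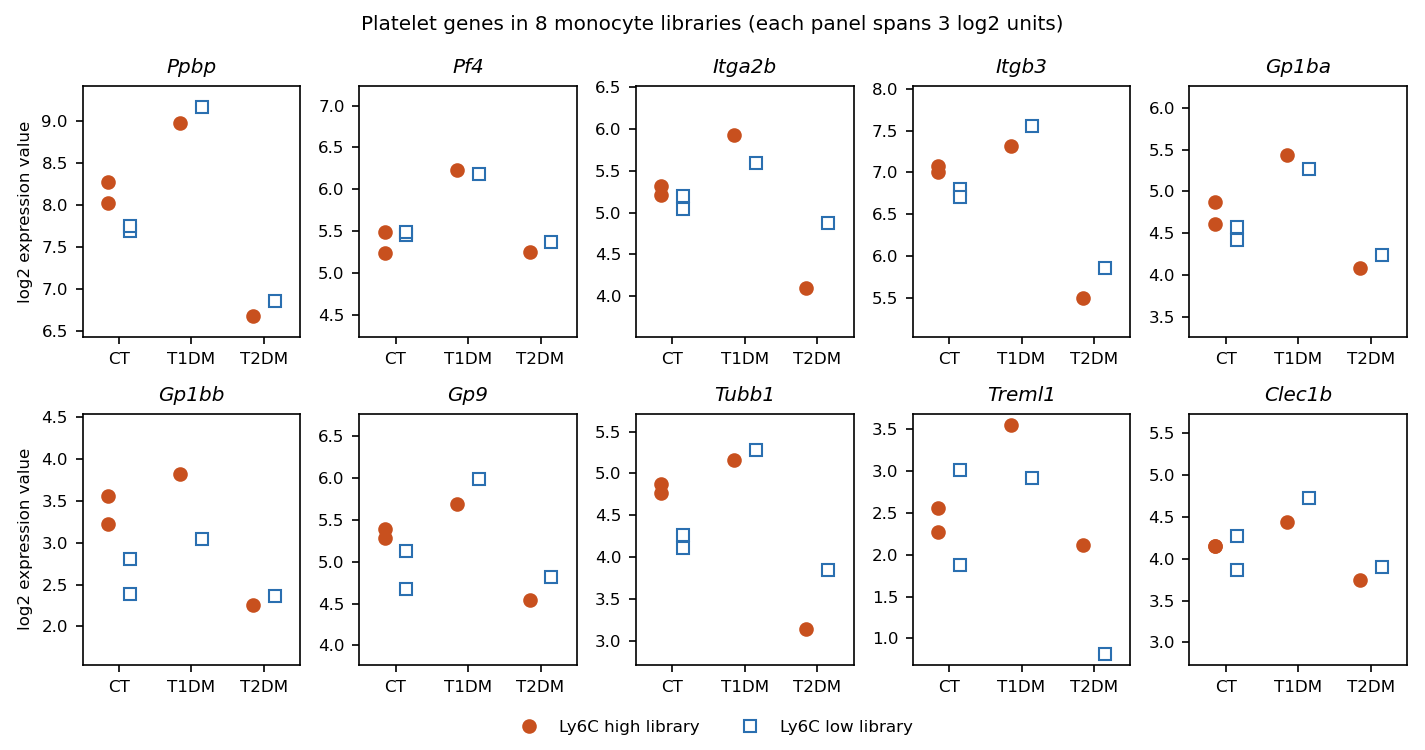
Deposited log2 expression value (y axis) of each platelet gene in the 8 libraries by mouse group (x axis), with filled circles for Ly6Chigh and open squares for Ly6Clow libraries, each point 1 library. For Ppbp the T1DM libraries sit at 8.98 and 9.17, the CT libraries between 7.70 and 8.27 and the T2DM libraries at 6.68 and 6.86, while the T2DM libraries of Pf4 sit at 5.25 and 5.38 among its CT libraries.

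T2DM against T1DM MCs was the mouse group comparison within 1 sequencer. All 10 platelet genes had a lower value in T2DM than in T1DM MCs, with log2FC from -2.31 for Ppbp to -0.76 for Clec1b and a median of -1.23, where the median of all 16486 genes was 0.00. Ppbp and Itgb3, 2 of the 10, passed the limits, and 97 genes or 0.588% of all genes did so, 0.388% with a lower value in T2DM. At an adjusted p under 0.05 it was 4 of the 10, with Gp1ba and Tubb1 added, beside 1.53% of all genes. At an unadjusted p under 0.05 it was 10 of the 10, beside 14.3% of all genes. Both T1DM libraries lay above both T2DM libraries for 10 of the 10, an order held by 13.5% of all genes. The difference was similar in size in both subsets for Ppbp, at -2.31 in Ly6Chigh and -2.31 in Ly6Clow MCs, and for Itgb3, at -1.81 and -1.70. It was larger in Ly6Chigh than in Ly6Clow MCs for Itga2b, at -1.83 and -0.72, and for Gp1bb, at -1.56 and -0.68, with 1 library on each side and no test. More than 2-fold lower in T2DM were 8 of the 10 in Ly6Chigh MCs, beside 10.8% of all genes, and 6 of the 10 in Ly6Clow MCs, beside 7.97%. The limma fit takes its spread from the CT replicates and from how far the subset difference varied between mouse groups, and with the 4 diabetic libraries alone 0 of the 10 and 0% of all genes passed, with limma adjusted p-values of 0.18 for Ppbp and 0.25 for Itgb3. Without the T1DM Ly6Chigh library 1 of the 10 passed, Ppbp, beside 0.188% of all genes. Without the T1DM Ly6Clow library it was 0 of the 10 beside 0.146%, and without the T2DM Ly6Chigh library 0 of the 10 beside 0.255%. Without the T2DM Ly6Clow library it was 3 of the 10, with Itga2b added, beside 0.886%.

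T1DM MCs were set against CT MCs to ask what STZ diabetes changed, with the sequencer in the same contrast. The log2FC was positive for 10 of the 10 platelet genes, from 0.44 for Gp1bb to 1.14 for Ppbp, with a median of 0.72 beside 0.01 for all genes. In the limma fit 0 of the 10 passed the limits, as did 0.0% of all genes, and 8 of the 10 had an unadjusted p under 0.05 beside 3.34% of all genes. Ppbp had a log2FC of 1.14 ± 0.16 (SE) and the lowest limma adjusted p of the set, 0.12. Pf4 followed with 0.79 ± 0.14 (SE) and an adjusted p of 0.20. Both T1DM libraries lay above all 4 CT libraries for 8 of the 10 genes, the exceptions being Gp1bb and Treml1, and for 2.81% of all genes. Within the subsets the median difference was 0.55 in Ly6Chigh and 0.74 in Ly6Clow MCs. More than 2-fold higher were 1 of the 10, Treml1, in Ly6Chigh MCs, beside 5.11% of all genes, and 3 of the 10, Ppbp, Gp9 and Tubb1, in Ly6Clow MCs, beside 4.03%.

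T2DM MCs were set against CT MCs in the same way for the db/db model. The log2FC was negative for 10 of the 10 platelet genes, from -1.22 for Itgb3 to -0.10 for Pf4, with a median of -0.70 beside 0.01 for all genes. In the limma fit 0 of the 10 and 0.297% of all genes passed the limits, and 5 of the 10 had an unadjusted p under 0.05 beside 8.94% of all genes. Itgb3 had a log2FC of -1.22 ± 0.16 (SE) and Ppbp of -1.17 ± 0.16 (SE), with limma adjusted p-values of 0.012 and 0.014, just outside the limit. Both passed when genes of low values were left out, beside 0.519% of the genes kept, after quantile normalization, beside 0.394% of all genes, and at an adjusted p under 0.05, beside 0.637%. Itgb3 alone passed with libraries scaled to a common sum, beside 0.346% of all genes. Tubb1 followed with a log2FC of -1.01 ± 0.29 (SE) and a limma adjusted p of 0.23. Both T2DM libraries lay below all 4 CT libraries for 6 of the 10 genes, against 4.62% of all genes, and the others were Pf4, Gp9, Treml1 and Clec1b. The median difference was -0.96 in Ly6Chigh and -0.26 in Ly6Clow MCs, and in Ly6Chigh MCs 5 of the 10 were more than 2-fold lower, beside 7.89% of all genes, where in Ly6Clow MCs it was 1 of the 10, Treml1, beside 5.68%. Tubb1 was 1.68 below CT in Ly6Chigh and 0.34 below CT in Ly6Clow MCs.

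The complete order of T1DM above CT above T2DM in all 8 libraries was held by 5 of the 10 genes, Ppbp, Itga2b, Itgb3, Gp1ba and Tubb1, and by 0.813% of all genes. Read within each subset, against the CT libraries of that subset alone, it was held by 6 of the 10, with Gp1bb added, and by 3.11% of all genes. Pf4, Gp9 and Clec1b were outside it through T2DM Ly6Clow or T2DM Ly6Chigh libraries that lay among the CT libraries, and Treml1 through the T1DM Ly6Clow library.

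**Figure D2:**
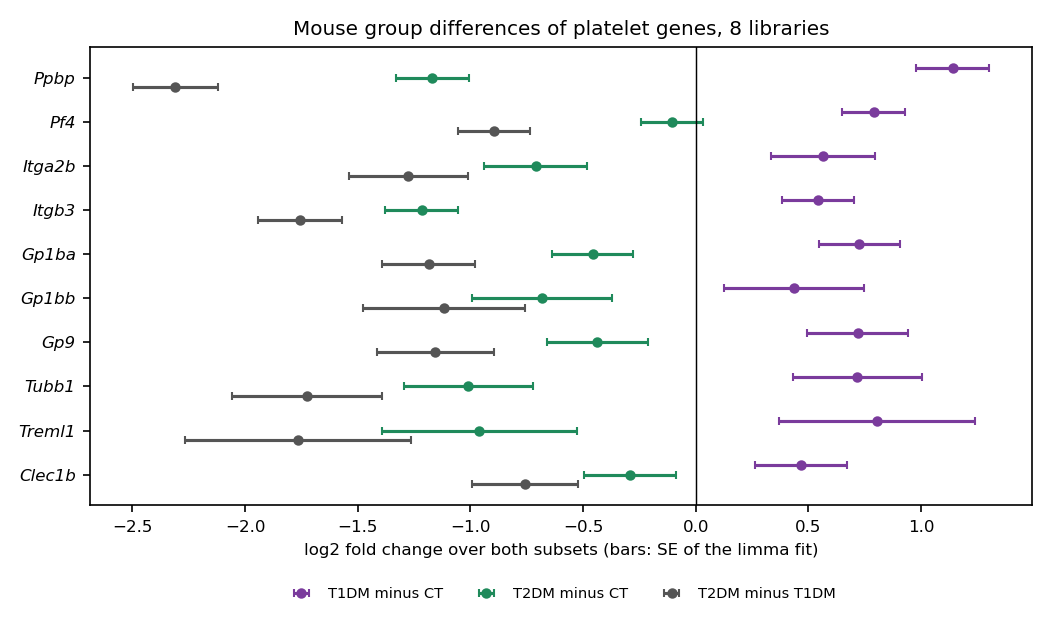
Log2 fold change (x axis) of each platelet gene (y axis) over both subsets for T1DM minus CT, T2DM minus CT and T2DM minus T1DM, with bars for the SE of the limma fit over 8 libraries. T1DM minus CT lies to the right of 0 for 10 of 10 genes and T2DM minus CT to the left for 10 of 10, and Ppbp has the lowest T2DM minus T1DM value at -2.31.

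The subset difference of the platelet genes was small beside that of the mouse groups. In CT mice 8 of the 10 genes had a higher mean in Ly6Chigh than in Ly6Clow MCs, with a median of 0.26, a direction that was lost with libraries scaled to a common sum, where the median was -0.021. Both CT Ly6Chigh libraries lay above both CT Ly6Clow libraries for 7 of the 10 genes and for 30.3% of all genes. The largest differences were 0.79 ± 0.27 (SE) for Gp1bb and 0.63 ± 0.14 (SE) for Tubb1, with limma adjusted p-values of 0.13 and 0.056. In the limma fit of the 4 CT libraries 0 of the 10 passed the limits beside 3.52% of all genes, and 4 of the 10 had an unadjusted p under 0.05 beside 37.7% of all genes. Over all 8 libraries 0 of the 10 passed beside 12.1% of all genes, 0 had an unadjusted p under 0.05, and the log2FC ran from -0.07 to 0.56. In T1DM mice 5 of the 10 were higher in the Ly6Chigh library and in T2DM mice 1 of the 10, which was Treml1 at 1.30. Itga2b and Tubb1 were 0.77 and 0.71 lower in the T2DM Ly6Chigh than in the T2DM Ly6Clow library. The test of whether the subset difference itself differed between diabetic and CT mice called 0 of the 10 (limma, adjusted p from 0.90 to 0.99), beside 0.0% of all genes, and gave 0 of the 10 an unadjusted p under 0.05. It took T1DM and T2DM together, so the difference between the 2 models counted as spread. The SE was 1.20 for Ppbp and 0.92 for Itgb3, beside 0.16 for each in T1DM against CT. With that spread the test cannot decide whether the subset difference of these genes changed with diabetes.

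**Figure D3:**
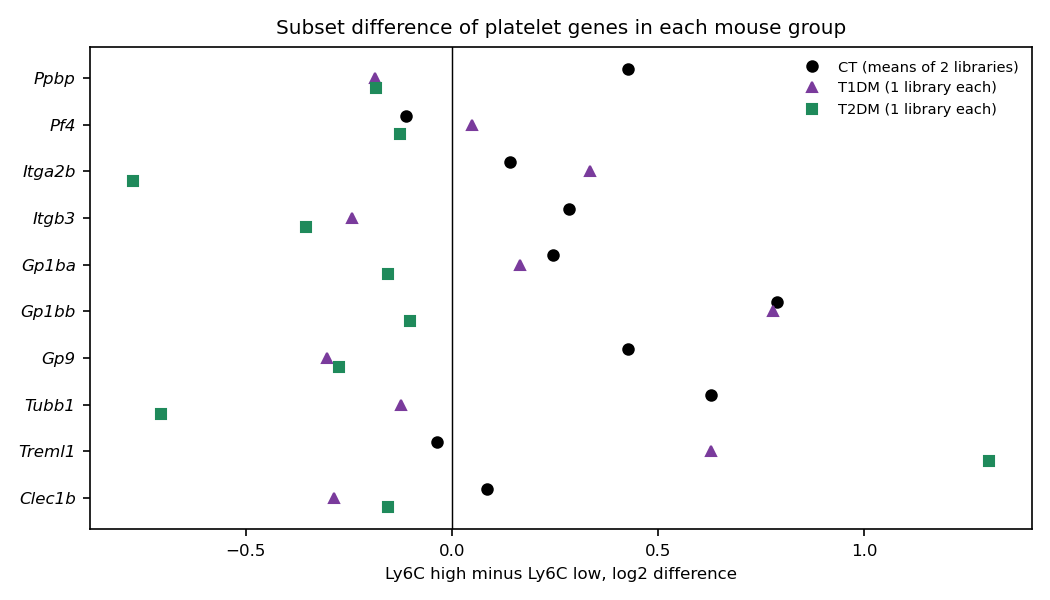
Ly6Chigh minus Ly6Clow log2 difference (x axis) of each platelet gene (y axis) in CT (means of 2 libraries each), T1DM and T2DM mice (1 library each). The CT points run from -0.11 to 0.79, and in T2DM mice every gene other than Treml1 lies to the left of 0.

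Summed on the linear scale, the 10 platelet genes took a small and graded share of each library. The share was 0.0628% and 0.0596% in CT Ly6Chigh, 0.0595% and 0.0595% in CT Ly6Clow, 0.0927% in T1DM Ly6Chigh, 0.122% in T1DM Ly6Clow, 0.0252% in T2DM Ly6Chigh and 0.0387% in T2DM Ly6Clow MCs. The 4 CT libraries were thus nearly equal in both subsets, with T1DM above and T2DM below them. Without Ppbp the share was 0.0326% to 0.0348% in CT, 0.0448% and 0.0561% in T1DM and 0.0158% and 0.0250% in T2DM MCs, in the same order.

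Haemoglobin genes, which mark red cells and their precursors, had the same order of mouse groups as the platelet genes. The 4 haemoglobin genes took 1.97% and 1.95% of the sum in CT Ly6Chigh, 2.83% and 2.83% in CT Ly6Clow, 3.54% and 3.50% in T1DM Ly6Chigh and Ly6Clow, and 1.49% and 1.91% in T2DM Ly6Chigh and Ly6Clow MCs. The share was highest in T1DM and lowest in T2DM libraries, as for the platelet genes, but CT Ly6Clow lay above CT Ly6Chigh MCs, which the platelet genes did not show. The part of red cell RNA in the platelet result was not tested.

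**Figure D4:**
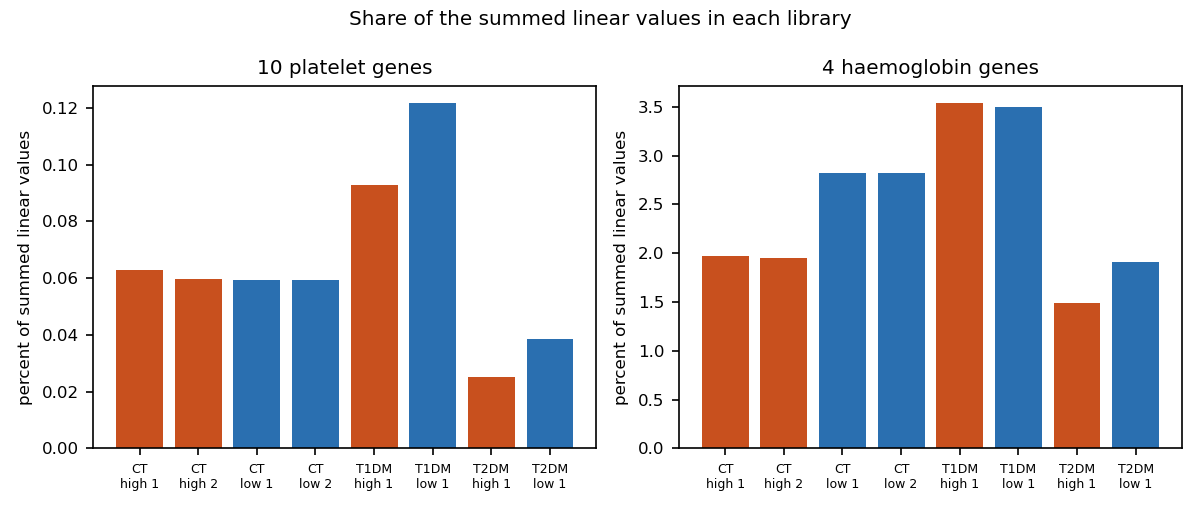
Percent of the summed linear values of each library (y axis) taken by the 10 platelet genes (left) and by the 4 haemoglobin genes (right), with 1 bar per library and colours for the subset (orange Ly6Chigh, blue Ly6Clow). The platelet share runs from 0.0252% in T2DM Ly6Chigh to 0.122% in T1DM Ly6Clow MCs, and the haemoglobin share from 1.49% to 3.54%.

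The platelet genes varied together over the 8 libraries, as a description over libraries that share mice and sequencer. Pearson r between 2 of the genes ran from 0.50 to 0.97 over 45 pairs, with a median of 0.81. Against the mean of the other genes it was highest for Ppbp (0.99), Gp1ba (0.97) and Tubb1 (0.95) and lowest for Treml1 (0.69), Gp1bb (0.79) and Pf4 (0.79). The neighbours Ppbp and Pf4 did not keep a fixed ratio. Their log2 difference was 3.04 and 2.54 in CT Ly6Chigh, 2.24 and 2.26 in CT Ly6Clow, 2.75 and 2.99 in T1DM Ly6Chigh and Ly6Clow, and 1.43 and 1.48 in T2DM Ly6Chigh and Ly6Clow MCs. Ppbp relative to Pf4 was thus lower in both T2DM libraries than in any other library. The integrin pair had a log2 difference of Itgb3 over Itga2b of 1.60 to 1.87 in CT, 1.39 and 1.97 in T1DM and 1.41 and 0.99 in T2DM MCs, where T1DM and T2DM overlapped.

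Other genes of platelets were read from lists of receptors, granule proteins, and cytoskeleton and signalling genes. Of 14 receptor genes with values, 11 were lower in T2DM than in T1DM MCs, with a median log2FC of -1.32. In this comparison 3 of the 14 passed the limits, beside 0.588% of all genes. Among them Mpig6b, an inhibitory receptor of megakaryocytes, fell by 2.38 ± 0.23 (SE, limma adjusted p = 0.0014) and the tetraspanin gene Cd9 fell by 1.12 ± 0.14 (SE, limma adjusted p = 0.0066). Mpig6b was at 4.86 and 4.92 in CT Ly6Chigh, 4.24 and 4.38 in CT Ly6Clow, 5.65 and 5.44 in T1DM Ly6Chigh and Ly6Clow, and 3.15 and 3.18 in T2DM Ly6Chigh and Ly6Clow MCs, with no overlap of mouse groups. The gene of the list that went furthest the other way was P2rx1, an ATP-gated channel also found in myeloid cells, with a log2FC of 2.49 ± 0.51 (SE) and a limma adjusted p of 0.049.

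Of 13 granule genes, 10 were lower in T2DM than in T1DM MCs, with a median of -0.92, and 4 passed, beside 0.588% of all genes. These were Mmrn1, which encodes multimerin (log2FC -2.32 ± 0.20, limma adjusted p = 0.00093), Nrgn (-1.99 ± 0.17, 0.00093), Clu, which encodes clusterin (-1.72 ± 0.22, 0.0075), and Vwf, which encodes von Willebrand factor (-1.35 ± 0.15, 0.0031), each with its SE. The other 3 granule genes were higher in T2DM than in T1DM MCs, at most by 0.76 ± 0.17 (SE) for Nbeal2 (limma adjusted p = 0.073). Mmrn1 and Nrgn also passed against CT, where they fell by 1.63 and 1.31 on the log2 scale (limma adjusted p = 0.0046 and 0.0054). Against CT 0.297% of all genes passed. Of 16 cytoskeleton and signalling genes, 15 were lower in T2DM than in T1DM MCs, with a median of -1.20, and 3 passed, beside 0.588% of all genes. Cavin2 fell by 3.05 ± 0.29 (SE), the lowest value of the platelet lists, Alox12, the platelet lipoxygenase, by 1.98 ± 0.14 (SE) and Ctla2a by 1.32 ± 0.12 (SE), with limma adjusted p-values of 0.0013, 0.00040 and 0.0012. Alox12 passed against CT as well, where it fell by 1.15 ± 0.13 (SE, limma adjusted p = 0.0046). In T1DM against CT MCs 12 of 14 receptor, 11 of 13 granule and 15 of 16 cytoskeleton and signalling genes had higher values, and 0 passed in each.

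Between the subsets the platelet receptor list was mixed. Over all 8 libraries P2ry1, an ADP receptor, rose by 2.47 ± 0.18 (SE) from Ly6Clow to Ly6Chigh MCs, while Pear1 fell by 3.30 ± 0.41 (SE) and Tbxa2r, the thromboxane receptor, by 2.87 ± 0.47 (SE), with limma adjusted p-values of 1.8e-05, 0.00036 and 0.0017. These 3 genes differed by more between subsets than any of the 10 platelet genes, whose largest subset log2FC over all libraries was 0.56.

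Transcription factors (TF) of megakaryocytes gave a mixed result. Of 10 TF genes 7 were lower in T2DM than in T1DM MCs, with a median of -0.15, and none of the 7 passed. Gata1, the main GATA factor of megakaryocytes and red cell precursors, had values from -1.22 to 1.27 over the 8 libraries, near the low end of the table, and a log2FC of 0.29 ± 0.69 (SE) between T2DM and T1DM MCs (limma adjusted p = 0.90). Fli1 and Runx1, which MCs also use, were at 7.05 to 7.60 and 7.43 to 8.02.

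The genes by which platelets and MCs bind each other were read next and were picked for that role after their values were seen. Selp, which encodes P-selectin, was at 2.04 and 1.28 in CT Ly6Chigh, 2.02 and 3.06 in CT Ly6Clow, 1.19 and 3.39 in T1DM Ly6Chigh and Ly6Clow, and 0.26 and 2.20 in T2DM Ly6Chigh and Ly6Clow MCs. Its mouse groups overlapped, and T2DM differed from T1DM by -1.06 ± 0.55 (SE, limma adjusted p = 0.44). Selplg, which encodes PSGL-1, had a log2FC of -0.64 ± 0.11 (SE) from T1DM to T2DM with a limma adjusted p of 0.026, outside the limits. Itgam, which encodes CD11b, differed by 0.02 ± 0.13 (SE) between T2DM and T1DM MCs (limma adjusted p = 0.97). Between the subsets Itgam rose by 1.03 ± 0.09 (SE) from Ly6Clow to Ly6Chigh MCs over all libraries (limma adjusted p = 7.1e-05), while the platelet genes had a median subset log2FC of 0.09. The list of MC binding partners, which does not hold Selp, had 8 genes with values. These were Selplg, Itgam, Itgb2, Itgal, Cd40, Cd36, Cxcr2 and Cxcr3. Of them 4 were lower in T2DM than in T1DM MCs and 0 passed.

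Marker genes of other blood cells showed which other RNA went with mouse group. From T1DM to T2DM 0.588% of all genes passed, which is the share beside the counts that follow. Of 9 erythroid genes with values 9 were lower in T2DM than in T1DM MCs, with a median of -1.09, and 3 passed. Car2 fell by 2.46, Hba-a2 by 1.16 and Hbb-bt by 1.12 (limma adjusted p = 0.0029, 0.0015 and 0.0034). Of 8 NK cell genes 8 were lower, with a median of -2.74, and 6 passed, but all 8 were also lower in Ly6Chigh than in Ly6Clow MCs, with a median of -2.79, which the platelet genes were not. The NK list summed to 0.00789% to 0.0735% of the library in CT, 0.0104% to 0.0955% in T1DM and 0.00221% to 0.0165% in T2DM MCs. Of 10 B cell genes 10 were lower, with a median of -0.45, and 0 passed. Of 8 classical MC genes 8 were higher in T2DM MCs, and 3 passed, one of them Mmp8. Of 7 neutrophil genes 6 were higher, and the 1 that passed was Mmp8 again, which is on both lists and was 5.13 higher in CT Ly6Chigh than in CT Ly6Clow MCs. Whether these cells had a part in the platelet result was not tested.

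**Figure D5:**
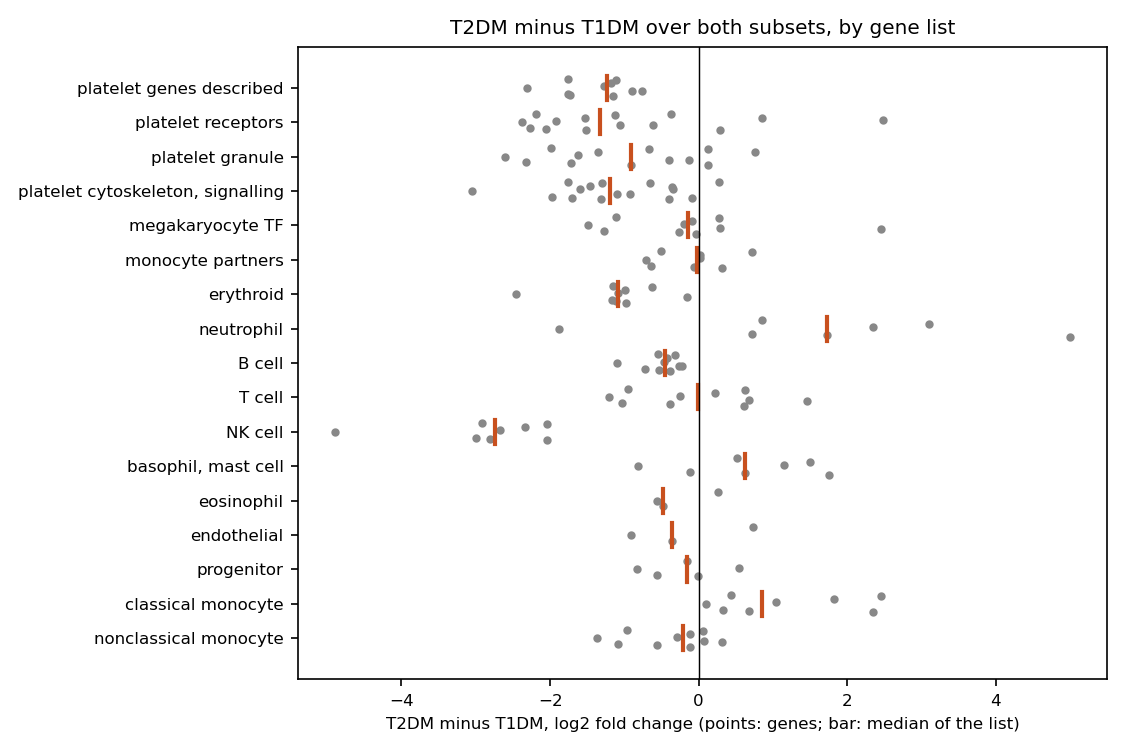
T2DM minus T1DM log2 fold change over both subsets (x axis) of the genes of each list (y axis), with a point for each gene and a bar at the median of the list. The 10 platelet genes have a median of -1.23, erythroid genes -1.09, NK cell genes -2.74, megakaryocyte TF genes -0.15 and genes of MC binding partners -0.02.

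The genes whose profile over the 8 libraries was most like the mean of the 10 platelet genes were ranked by Pearson r among 12517 genes. Among the first 10 were Gpr182 and Mpig6b with r of 0.99, Cd226, Gnas and Alas2 with 0.98, Arhgap10, Draxin and Samd14 with 0.97 to 0.98, and Nrgn with 0.97. Of the first 10 genes 4 were on the platelet lists and Alas2, the heme synthesis gene of red cell precursors, was on the erythroid list. Platelet list genes were 47 of the 12517 genes ranked and 11 of the first 50. With the mean of each subset taken away, 2 of the first 10 and 8 of the first 50 were on the platelet lists. That first 10 held Creb1, Gpr182, Mpig6b, Plxna4, H2-Oa, Draxin, Alas2, Gnas and Ivns1abp. Across 8 libraries in 3 mouse groups many genes reach a high r, so the rank is a description.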

How the data were processed

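Bulk RNA-Seq of sorted blood MCs was analysed in 8 libraries (2 CT per subset, 1 T1DM and 1 T2DM per subset), grouped by their labels. The authors quantified reads with Kallisto (0.45) and used R 3.6.1 to summarize transcripts to genes (tximport, version 1.12.3), with mm10 named in the submitters' processing notes, and deposited log2 expression values. Both gene counts and TPM are named in the methods, and which of them the log2 values were made from, the scaling between libraries and the filter on low genes are not given in the sources used here. The values hold no counts, so no counting error can be given, and p-values measure the spread between these libraries, which may be technical.

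Deposited log2 values were used without further normalization. limma (3.58.1, lmFit and eBayes with a variance trend, R 4.3.3) was fitted to the 4 CT libraries for the subsets. For the other comparisons it was fitted to all 8 libraries with subset and mouse group. The test of the subset difference used all 8 libraries with subset, diabetes (T1DM and T2DM together) and their interaction. Benjamini-Hochberg adjustment was made over 16486 genes. A gene passed at an adjusted p under 0.01 and an absolute log2FC over 1, the criteria of the paper. The mouse group fit has 4 residual degrees of freedom. Comparisons with 1 library on a side were given as differences without a test. The fits were tested on simulated data. Genes named are the 10 platelet genes, genes of the lists that passed, the extremes of a list, and the 10 genes most like the mean profile. Some single genes that this rule takes in are not reported here. Fli1, Runx1, Gata1, Selp, Selplg and the haemoglobin genes were added after their values were seen. The genes and lists were chosen with earlier results of these data known.

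The alternatives were a filter at a mean log2 value of 1 (12527 genes), 1 added on the linear scale, quantile normalization, scaling of the linear values to a common sum, no variance trend, an adjusted p of 0.05, a replicate block, and leaving out libraries. Leaving out each diabetic library and fitting the 4 diabetic libraries alone were chosen after seeing the data. Promoters came from RefSeq (GRCm38.p6), and shared 31-base sequences were counted in GENCODE transcripts. Python 3.11.15 with numpy 2.4.6, pandas 2.3.3 and matplotlib 3.10.9 was used.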

Additional observations from a re-analysis of the deposited data

Results flagged for a closer look

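In the test of the 2 diabetic models against each other, Ppbp and Itgb3 passed the limits. Each model had 1 library of each subset from pooled mice, and the 2 subsets stood in as repeats. With the 4 diabetic libraries alone neither gene passed, and 0% of all genes did. Against CT, where the sequencer differed as well, neither gene passed, with limma adjusted p-values of 0.12 and 1.00 for T1DM and of 0.014 and 0.012 for T2DM. The test of T2DM against T1DM gave a log2FC of -2.31 for Ppbp (limma adjusted p = 0.00064) and of -1.76 for Itgb3 (limma adjusted p = 0.0026), with the T2DM library below the T1DM library in 2 of 2 subsets for each gene. Outlying libraries could not be looked for, since groups hold 1 or 2 libraries.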

How the results depend on the processing

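With the replicate number of the CT libraries as a block, 0 of the 10 platelet genes passed in CT, beside 0% of all genes. Without the block it was 0 of the 10 beside 3.52%. Since no gene at all passed with the block in CT, that count cannot speak for the platelet genes. Over all libraries 0 of the 10 passed with the block, beside 11.1% of all genes, and 0 without it, beside 12.1%. The CT numbers share only a number, since the deviations of same-numbered libraries had a correlation of 0.0089 over all genes, and with 2 pairs no more can be read from it. For T2DM against CT the count of platelet genes that passed was 0, but 2 with the filter on low values, 2 after quantile normalization, 2 at an adjusted p under 0.05 and 1 with libraries scaled to a common sum. For T2DM against T1DM it was 2, but 0 without the variance trend, 4 at an adjusted p under 0.05, 0 with the 4 diabetic libraries alone, and 0 to 3 when 1 library was left out. Of all genes 0.588% passed in the main fit of T2DM against T1DM and 0.158% without the variance trend. Calls were thus lost over all genes as well, and the 0 without the trend does not single out the platelet genes. At an adjusted p under 0.05 the share of all genes was 1.53%, and with the 4 diabetic libraries alone it was 0%. All other counts of platelet genes stayed at 0 under each alternative run, which says little where hardly any gene passed. In T1DM against CT 0% of all genes passed, or 0.0121% at an adjusted p under 0.05. The test of the subset difference likewise passed 0%, or 0.0182% at an adjusted p under 0.05. Between the CT subsets 0% of all genes passed without the variance trend. The subset fit over all libraries still passed 10% of all genes without the trend. Of the log2FC of single platelet genes between mouse groups under these alternatives, 431 kept their direction and side of the limits, 9 no longer passed and 10 came to pass. The signs of the mouse group log2FC of the 10 genes were the same under each scaling. This scaling moved the median of all genes between the subsets from -0.08 to -0.38 over all libraries, and the platelet median from 0.09 to -0.21. It gave a Ly6Chigh minus Ly6Clow platelet median of -0.021 for CT, -0.30 for T1DM and -0.53 for T2DM. After quantile normalization that of T2DM mice was -0.30. The median of T2DM minus T1DM in Ly6Chigh MCs was -1.34 with 1 added on the linear scale and -1.35 after quantile normalization. The cause of these shifts was not tested. Unknown read counts and 1 library per diabetic subset limit every comparison.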
